A study of Mus musculus with 12 samples.

Results

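The genes described here encode the excitation-contraction coupling complex of the skeletal muscle triad. The 10 members are *Cacna1s*, *Cacnb1*, *Cacng1*, *Cacna2d1* and *Stac3* on the side of the voltage sensor, *Ryr1* as the release channel, and *Trdn*, *Jsrp1*, *Jph1* and *Jph2* as proteins of the junction. They were found by gene symbol, and all 10 were present among the 55367 gene symbols of each sample and passed the filter on low values. Single muscle fibers of the extensor digitorum longus, a fast muscle of the hindlimb, were isolated with collagenase from male C57BL/6J mice and stained with Fluo-4, a calcium indicator. Fibers of young mice (3 to 4 months of age) were compared with 2 kinds of fiber from mice of 26 to 28 months, which were separated under a fluorescence stereomicroscope. Fluo-4 abnormal fibers are those whose staining looked aberrant and brighter, and Fluo-4 normal fibers lacked such staining. By electron microscopy the study saw in the abnormal fibers structures that resemble tubular aggregates, which are packed tubules formed from the sarcoplasmic reticulum (SR). Each group held 4 samples, and the number of fibers or mice in a sample was not given in the sources used here, so p-values measure the spread between these samples. The study had stained the release channel and the voltage sensor as proteins in such fibers. It reported that both were abnormally localized in the abnormal but not in the normal fibers. It also reported a weaker rise of calcium after caffeine in the abnormal fibers. The comparison here asks how the transcripts of these proteins stood in each kind of fiber, which shows neither their placement nor their function.

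In skeletal muscle the action potential runs along the transverse tubule (T-tubule), a fold of the surface membrane that lies between terminal cisternae of the SR at the triad. The voltage sensor in the T-tubule, a calcium channel known as the dihydropyridine receptor, is coupled mechanically to the ryanodine receptor in the SR, which then releases calcium to start contraction. Junctophilins hold the membranes together, and triadin and its partners tie the release channel to the calcium store inside the SR.

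The expression level is given in TPM, a measure of transcript abundance that divides reads by transcript length and scales every sample to the same total of 1000000. TPM keeps no sequencing depth, so the depth of the samples is unknown here, and a change is relative to all other transcripts of the sample. A difference in total RNA per fiber does not show in TPM. Between 16841 and 17936 symbols were above 0 per sample. The 5 myofiber markers (*Ckm*, *Acta1*, *Tnnt3*, *Mylpf*, *Pvalb*) summed to between 120900 and 159700 TPM, and the adipocyte markers *Adipoq*, *Plin1* and *Cidec* were at 0 in every sample. The summed level of the 4 satellite cell markers was at most 2.11 TPM, of the 4 immune markers 2.95 and of the 4 endothelial markers 9.40. Fibroblast markers reached 34.8 TPM in young, 80.0 in normal and 62.1 in abnormal samples, smooth muscle markers 63.5, 21.5 and 11.3, and erythroid markers 84.4, 322.4 and 162.2. Some of these sums moved with the groups. The immune markers, at most 0.449 TPM in young and at least 0.457 in abnormal samples, did not overlap, nor did the erythroid markers between young and normal samples (from 85.1 TPM in normal). *Mbp*, a myelin protein of Schwann cells, was at 0.150 to 0.741 TPM in young, 0.868 to 4.18 in normal and 2.33 to 5.43 in abnormal samples, and was called higher in abnormal over young fibers (1.60 on the log2 scale, adjusted p = 0.0065). The part of these markers in the results below was not tested. *Myh4*, the fast type IIB myosin heavy chain, made up 96.9 to 98.6% of the summed *Myh1*, *Myh2*, *Myh4* and *Myh7* level in young, 93.7 to 99.2% in normal and 98.9 to 99.7% in abnormal samples. Mitochondrially-encoded genes took 7.35 to 8.01%, 8.75 to 10.9% and 4.75 to 6.92% of all TPM, so that the abnormal samples were the lowest in this share.

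The promoter sequences are shown for the partners of the coupling step, *Cacna1s* and *Ryr1*, for *Jph2* as a junctional member and for *Cacnb1*, whose ratio to *Cacna1s* is described further on. RefSeq windows of build GRCm38.p6 were matched by symbol for 5 of the 10 members, with 7 transcription starts between them (*Cacna1s*, *Ryr1* and *Cacna2d1* with 1 start, *Jph2* and *Cacnb1* with 2). No window was matched for *Cacng1*, *Stac3*, *Jph1*, *Trdn* and *Jsrp1*. The 250 bases before a start are printed 5′ to 3′ on the strand of the gene, with every match to a searched motif in capitals. The motifs were the E-box (CANNTG), the MCAT element (CATTCC), the TATA box (TATAAA), the MEF2 site and the CArG box, each on both strands.
Cacna1s, chr1:136052561-136052810, plus strand: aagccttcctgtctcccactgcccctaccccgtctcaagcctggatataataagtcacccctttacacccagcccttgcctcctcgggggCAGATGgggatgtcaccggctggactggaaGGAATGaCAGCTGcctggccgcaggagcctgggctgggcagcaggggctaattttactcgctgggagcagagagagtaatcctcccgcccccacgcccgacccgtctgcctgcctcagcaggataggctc
Ryr1, chr7:29125152-29125401, minus strand: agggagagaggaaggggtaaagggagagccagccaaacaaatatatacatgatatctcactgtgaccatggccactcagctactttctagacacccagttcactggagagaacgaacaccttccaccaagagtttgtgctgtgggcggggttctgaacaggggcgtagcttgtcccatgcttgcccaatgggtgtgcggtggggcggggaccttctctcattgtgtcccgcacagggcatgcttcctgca
Jph2, first start, chr2:163397994-163398243, minus strand: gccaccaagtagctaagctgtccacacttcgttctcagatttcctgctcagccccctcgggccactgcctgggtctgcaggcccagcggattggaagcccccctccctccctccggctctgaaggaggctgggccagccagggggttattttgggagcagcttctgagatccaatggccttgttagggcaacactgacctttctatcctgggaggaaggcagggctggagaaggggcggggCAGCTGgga
Cacnb1, first start, chr11:98022628-98022877, minus strand: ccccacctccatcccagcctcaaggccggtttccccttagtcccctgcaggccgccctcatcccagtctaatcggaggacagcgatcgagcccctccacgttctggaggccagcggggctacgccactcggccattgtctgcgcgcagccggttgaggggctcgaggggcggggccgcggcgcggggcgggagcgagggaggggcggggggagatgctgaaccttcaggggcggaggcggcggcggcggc
In the *Cacna1s* window the capitals mark E-boxes that begin 160 and 123 bases before the start and, between them, an MCAT element on the opposite strand that begins 130 bases before it. The *Jph2* window holds an E-box that begins 9 bases before the first start, and the second start of *Cacnb1*, which is not printed, has an E-box that begins 27 bases before it. The windows of *Ryr1*, *Cacna2d1* and the first start of *Cacnb1* had no match to any of the 5 motifs. Among 32851 windows of the same length, 66.2% held an E-box, 12.6% an MCAT element, 12.4% a TATA box, 2.92% a MEF2 site and 1.47% a CArG box. The GC content was 54.8% in the *Ryr1* window and 62.4% in the *Cacna1s* window, against a median of 52.4% over all windows, and it reached 82.4% in that of *Cacna2d1*.

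The members were not present at equal levels. Averaged over the 12 samples, *Trdn*, which encodes triadin, stood highest at 1681 TPM, and *Cacng1*, the gamma subunit of the voltage sensor, followed at 506 TPM. *Trdn* ranked first, *Cacng1* second and *Cacna2d1*, the alpha-2/delta subunit (23.1 TPM), last of the 10 in every sample. *Jsrp1* (313 TPM) and *Stac3* (259 TPM) came next and exchanged places between samples. *Cacna1s*, *Ryr1*, *Jph2*, *Cacnb1* and *Jph1* lay close together, at 129, 121, 97.4, 94.4 and 85.6 TPM, and changed places from sample to sample, so that the order of neighbours in this group was not fixed. Levels of different genes depend on the transcript lengths used for TPM, which were not given in the sources used here. The canonical transcripts of the reference annotation range from 1323 bases for *Cacng1* to 15358 bases and 106 exons for *Ryr1*.

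**Figure D1:**
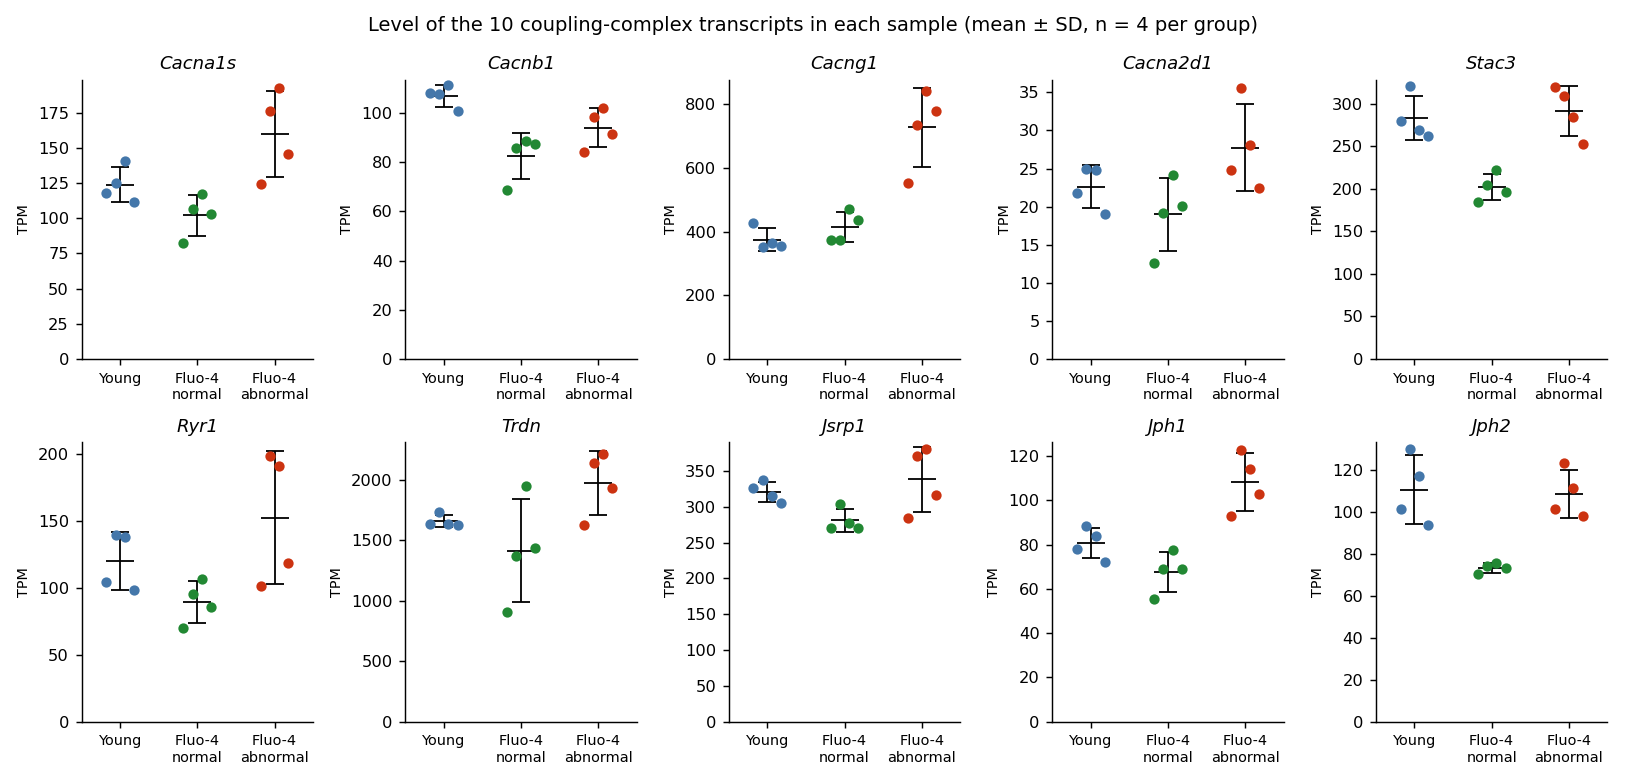
TPM (vertical axis, starting at 0) of each member in the 4 young, 4 Fluo-4 normal and 4 Fluo-4 abnormal samples; dots are samples and bars are the mean ± SD. For Cacna1s, Cacng1, Stac3, Jph1 and Jph2 every abnormal sample lies above every normal sample, and for Stac3 and Jph2 every normal sample also lies below every young sample.

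Most of the coupling complex stood higher in abnormal fibers than in normal fibers of the same age. Of the 10 members, 6 rose, namely *Cacng1*, *Jph1*, *Cacna1s*, *Jph2*, *Stac3* and *Ryr1*, and none fell at an adjusted p under 0.05. Over all 14429 genes tested, 7.36% were called higher. The log2 change was above 0 for all 10 members, with a median of 0.54, and for 69.6% of all genes tested, with a median of 0.10. Among the 5994 genes with a mean of at least 5 TPM, which all members had, 848 were called higher, 78.3% had a change above 0, the median was 0.20, and 1208 had all abnormal samples above all normal ones. The samples of the groups did not overlap for 5 members, against 11.5% of all genes with the abnormal samples higher. In each of the 4 same-numbered sets of an abnormal and a normal sample, each of the 10 members was higher in the abnormal sample. The share of all genes that did so was not counted, so this cannot be read as particular to the members. Same-numbered samples of these groups deviated together, as described with the processing. The SEs, intervals and p-values per gene below come from a fit that does not use this pairing, unless the replicate block is named.

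The pore-forming subunit of the voltage sensor, *Cacna1s* (chromosome 1, 135980259 to 136047560, plus strand; coordinates of gene loci are in GRCm39), was at 82.3, 106, 117 and 103 TPM in normal samples 1 to 4 and at 124, 176, 193 and 145 TPM in abnormal samples 1 to 4. No abnormal sample was as low as any normal one. The log2 change was 0.63 ± 0.14 (SE; adjusted p = 0.013), or 1.56-fold in the group means. Without abnormal sample 2 it was 0.58 (adjusted p = 0.056). The young samples, at 118, 125, 140 and 112 TPM, lay between the group means of the aged fibers. Against young, the abnormal fibers differed by 0.35 ± 0.14 (SE; adjusted p = 0.14), which did not pass the threshold.

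*Cacng1* (chromosome 11, 107591493 to 107607408, minus strand), whose product is the gamma-1 subunit of the voltage sensor, had the largest change of the 10 in abnormal fibers. It was at 376, 376, 470 and 437 TPM in the normal samples and at 555, 736, 843 and 779 TPM in the abnormal samples. The young samples, at 429, 353, 364 and 355 TPM, overlapped with the normal ones, and each abnormal sample was above all 8 others. *Cacng1* rose by 0.80 ± 0.12 (SE; adjusted p = 0.0024) over normal and by 0.94 ± 0.12 (SE; adjusted p = 0.00059) over young fibers. Normal against young, the change was 0.14 with an adjusted p of 0.68.

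The beta subunit, *Cacnb1* (chromosome 11, 97892204 to 97913860, minus strand), encodes the subunit that helps to place the channel in the T-tubule membrane. Its level was 68.6, 85.8, 88.4 and 87.2 TPM in the normal samples, 84.2, 98.3, 102 and 91.5 TPM in the abnormal samples, and 108, 108, 111 and 101 TPM in the young samples. The aged groups overlapped, and the young samples were all above the normal ones. Between abnormal and normal the log2 change was 0.19 ± 0.09 (SE; adjusted p = 0.19), the smallest of the 10. It turned to -0.03 after rescaling by TMM-type factors, which divide each sample by a trimmed mean of its gene ratios to a reference sample. The median change of all genes was then 0. Normal fibers stood at -0.37 ± 0.09 (SE; adjusted p = 0.060) and abnormal fibers at -0.19 ± 0.09 (SE; adjusted p = 0.23) relative to young. After that rescaling both lay below young, at -0.32 (adjusted p = 0.030) and -0.36 (adjusted p = 0.0056).

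*Cacna2d1* (chromosome 5, 16139372 to 16579509, plus strand), whose product is an extracellular subunit of the channel, was the lowest member. It was at 12.6, 19.1, 24.2 and 20.1 TPM in the normal samples and at 24.9, 35.5, 28.2 and 22.4 TPM in the abnormal samples, which overlapped. The log2 change of 0.54 ± 0.18 (SE; adjusted p = 0.078) did not pass.

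*Stac3* (chromosome 10, 127337542 to 127344696, plus strand) encodes an adaptor that binds the voltage sensor and is needed for its coupling to the release channel. The normal samples held 185, 205, 222 and 197 TPM, below every abnormal sample (320, 309, 284 and 253 TPM) and below every young sample (280, 321, 269 and 263 TPM). *Stac3* was therefore lower in normal fibers than in either other group. It rose by 0.52 ± 0.09 (SE; adjusted p = 0.0040) in abnormal over normal fibers, and fell by 0.48 ± 0.09 (SE; adjusted p = 0.021) in normal against young fibers. The latter call was lost without young sample 1, 2 or 3 or normal sample 2 or 4, with adjusted p-values from 0.061 to 0.088. Abnormal and young fibers differed by 0.04, with a 95% interval from -0.15 to 0.23.

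The release channel itself, *Ryr1* (chromosome 7, 28702769 to 28824604, minus strand), was the member with the most uneven samples. The abnormal samples were at 101, 199, 191 and 118 TPM, the normal samples at 69.8, 95.5, 107 and 85.8 TPM, and the young samples at 104, 140, 138 and 98.7 TPM. Abnormal samples 2 and 3 stood above all others, whereas abnormal sample 1 lay within the range of the normal samples. The change over normal was 0.72 ± 0.21 (SE; adjusted p = 0.047), just under the threshold, and 14 of the 19 other settings tried took it over 0.05, up to 0.29. Among them were the fits without normal sample 1 (0.61, adjusted p = 0.14), normal sample 2 (0.093) or 4 (0.11), and those without abnormal sample 2 (0.57, adjusted p = 0.16), 3 (0.14) or 4 (0.058). The change was 0.49 (adjusted p = 0.14) under TMM-type factors and 0.25 (adjusted p = 0.12) after removal of a trend with GC content and transcript length. Against young fibers neither the abnormal (0.30, adjusted p = 0.44) nor the normal ones (-0.42, adjusted p = 0.43) passed.

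Of the proteins that join the membranes, *Jph1* (chromosome 1, 17012318 to 17168113, minus strand) and *Jph2* (chromosome 2, 163178162 to 163239920, minus strand) encode junctophilins, which span the gap between T-tubule and SR. *Jph1* was at 55.3, 69.1, 77.4 and 69.1 TPM in normal, 93.1, 123, 114 and 103 TPM in abnormal and 78.2, 88.3, 84.1 and 72.4 TPM in young samples. Every abnormal sample was above all 8 others. *Jph1* rose by 0.67 ± 0.11 (SE; adjusted p = 0.0033) over normal fibers and by 0.41 ± 0.11 (SE; adjusted p = 0.033) over young fibers, and 7 of 19 other settings took the latter over the threshold, among them those without young sample 1, 3 or 4 or abnormal sample 2, 3 or 4, with adjusted p-values up to 0.11.

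*Jph2* was at 70.2, 74.2, 75.4 and 73.2 TPM in normal, 101, 123, 111 and 97.8 TPM in abnormal and 101, 130, 117 and 93.6 TPM in young samples. The 4 normal samples lay close together and below all 8 others, and the abnormal and young samples covered nearly the same range. The log2 change was 0.55 ± 0.10 (SE; adjusted p = 0.0054) in abnormal over normal fibers and -0.57 ± 0.10 (SE; adjusted p = 0.016) in normal against young fibers. Without young sample 2 or 3 or normal sample 2 or 4 the latter had adjusted p-values from 0.060 to 0.072. Abnormal against young it was -0.02, with a 95% interval from -0.24 to 0.19.

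*Trdn* (chromosome 10, 32956550 to 33356376, plus strand) encodes triadin, which anchors calsequestrin near the release channel, and *Jsrp1* (chromosome 10, 80643923 to 80649470, minus strand) encodes a junctional SR protein that binds the voltage sensor. *Trdn* was at 907, 1366, 1946 and 1431 TPM in normal, 1621, 2136, 2215 and 1930 TPM in abnormal and 1633, 1731, 1636 and 1623 TPM in young samples. The normal samples were spread widely, from below to above the whole range of the young ones, and overlapped with the abnormal ones. The change of *Trdn* in abnormal over normal fibers was 0.52 ± 0.17 (SE; adjusted p = 0.077). *Jsrp1* was at 271, 304, 278 and 271 TPM in normal and at 285, 371, 381 and 316 TPM in abnormal samples, with a change of 0.26 ± 0.09 (SE; adjusted p = 0.080). Neither passed the threshold.

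**Figure D2:**
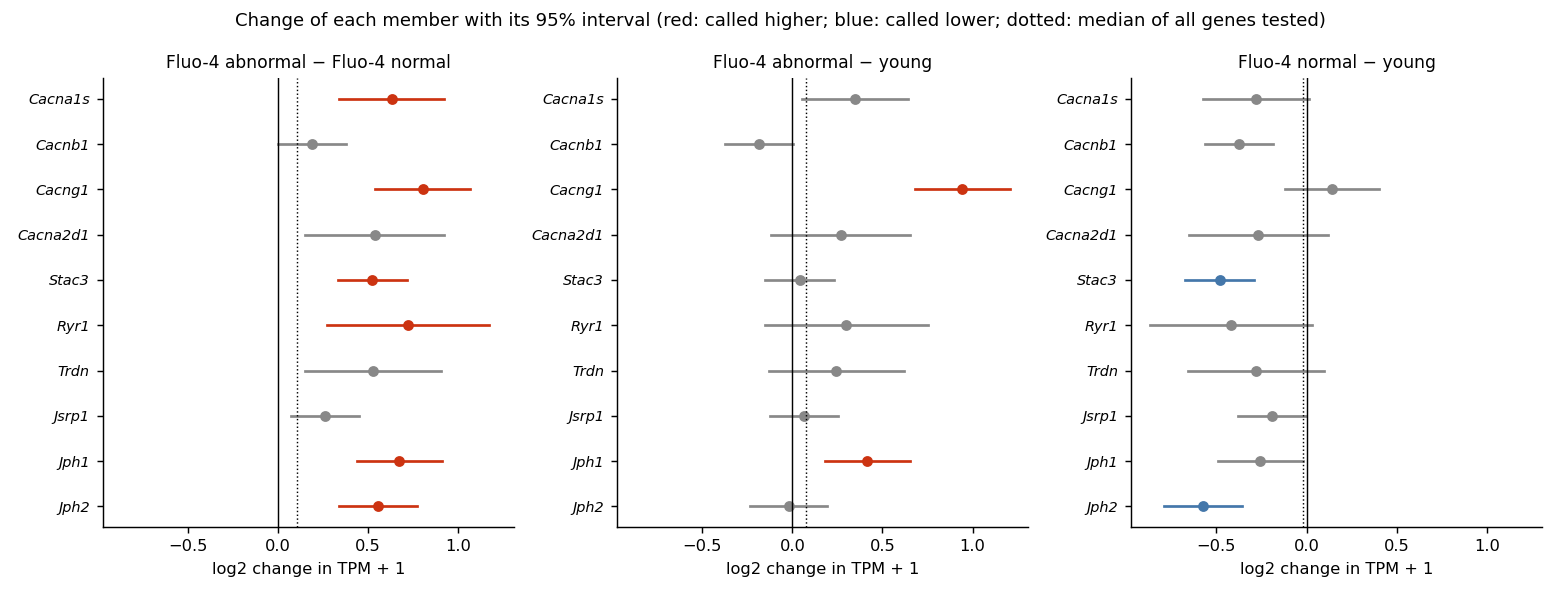
Change of each member on the log2(TPM + 1) scale (horizontal axis) in the 3 comparisons; dots are fitted changes, lines are 95% intervals from limma, red is called higher, blue called lower, and the dotted line is the median of all genes tested. In the left panel 6 members are red and all 10 dots lie above 0, while in the right panel Jph2 and Stac3 are blue and 9 of the 10 dots lie below 0.

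In Fluo-4 normal against young fibers 9 of the 10 changes were below 0, with a median of -0.28, while 43.9% of all genes tested were above 0 and their median was -0.02. Of the members, 2 fell, *Jph2* and *Stac3*, and none rose, where 0.589% of all genes were called lower. The samples did not overlap for 4 members with the normal ones lower (*Cacnb1*, *Stac3*, *Jph2* and *Jsrp1*), against 4.96% of all genes. Among the 5994 genes with a mean of at least 5 TPM, 73 were called lower and 34.1% had a change above 0. Of these genes, 532 had all normal samples below all young ones. In abnormal against young fibers 8 of the 10 changes were above 0, as were 66.7% of those of all genes tested. The median was 0.26 for the members against 0.07 for all genes. Of the members, 2 rose, *Cacng1* and *Jph1*, where 6.09% of all genes were called higher. The samples of *Cacng1* and *Jph1* alone among the members did not overlap, against 12.2% of all genes. Among the 5994 genes with a mean of at least 5 TPM, 614 were called higher and 67.9% had a change above 0. Their median was 0.12, and 1155 of them had all abnormal samples above all young ones. These comparisons share samples, so their changes are not independent of each other. No member reached at least 2-fold between the abnormal and young group means together with an unadjusted p under 0.05 between abnormal and normal, the criteria in the methods of the study, which 3.41% of all genes tested met under limma.

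The scale of the samples bore on the size of these changes. Rescaling by TMM-type factors moved the median change of all genes between abnormal and normal fibers from 0.10 to 0.00, and that of the members from 0.54 to 0.32. Under it 4 members were called higher (*Cacng1*, *Jph1*, *Jph2* and *Cacna1s*) and *Cacnb1* was below 0, while the calls over all genes turned from 1062 higher and 287 lower to 310 higher and 545 lower. After removal of a trend with GC content and transcript length, the medians were -0.08 for all genes and 0.27 for the members, with 4 members called higher (*Cacng1*, *Jph1*, *Stac3* and *Cacna1s*) and 452 higher and 958 lower over all genes. With TPM rescaled without the mitochondrially-encoded genes, the median of the members was 0.49 and 5 were called higher, beside 636 higher and 321 lower over all genes. In the other comparisons the calls over all genes also moved under TMM-type factors, to 450 higher and 692 lower from 879 and 348 between abnormal and young, and to 129 higher and 108 lower from 81 and 85 between normal and young. The median of the members between abnormal and young fell from 0.26 to 0.09 under TMM-type factors, with 6 of 10 changes above 0, 1 member called higher and 1 lower. After removal of the GC and length trend it was 0.04, with 6 changes above 0, 2 members called higher and 1 lower. Over all genes 614 were then called higher and 754 lower. Between normal and young the median of the members was -0.23 and -0.17 under these settings. In each, 3 members were called lower, beside 108 and 137 of all genes.

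Normal sample 1 was the lowest of its group for all 10 members, young sample 4 of its group for 9 and abnormal sample 1 of its group for 7. Without normal sample 1, the median of the members between abnormal and normal was 0.51, and 5 were called higher, *Ryr1* no longer. Over all genes 656 were then called higher. Without abnormal sample 2 there were 4 calls among the members, beside 413 higher over all genes. Without normal sample 3 there were 8, beside 1124.

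**Figure D3:**
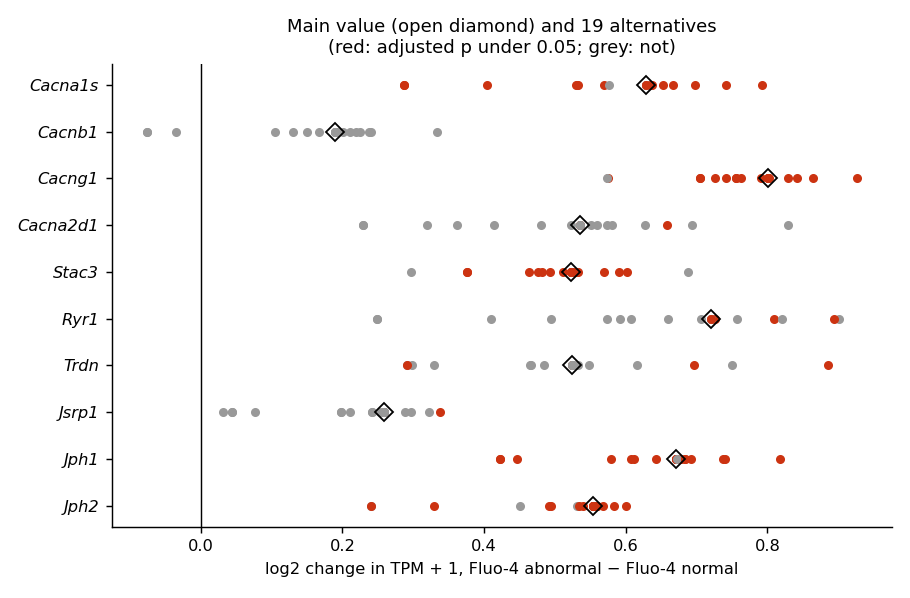
Log2 change of each member between Fluo-4 abnormal and Fluo-4 normal fibers (horizontal axis) in the fit reported above (open diamonds) and under 19 other settings (dots, red where the adjusted p was under 0.05). Jph1 and Cacng1 stayed under the threshold in 18 of 19 settings, whereas Ryr1 did so in 5 and Cacnb1 in 0, with 3 of its values below 0.

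The ratio of partners within a sample does not depend on how that sample was scaled. Ratios of TPM were compared for 5 pairs over the 3 comparisons, 15 exact permutation tests in all (two-sided), in which 4 samples against 4 cannot give a p below 0.0286. The ratio of *Cacnb1* to *Cacna1s*, the beta to the pore-forming subunit, was 0.914, 0.859, 0.791 and 0.900 in young, 0.834, 0.805, 0.756 and 0.846 in normal and 0.678, 0.559, 0.528 and 0.630 in abnormal samples. All 4 abnormal samples were below the 8 others. The mean was 0.866 ± 0.055 (SD, n = 4) in young, 0.810 ± 0.040 (SD, n = 4) in normal and 0.599 ± 0.068 (SD, n = 4) in abnormal fibers. The exact p was 0.0286 for abnormal against each other group, the smallest the design allows, and 0.107 after adjustment over the 15 tests, which did not pass.

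The ratio of *Jph2* to *Jph1*, the junctophilins, was 1.29, 1.47, 1.39 and 1.29 in young, 1.27, 1.07, 0.975 and 1.06 in normal and 1.09, 1.00, 0.974 and 0.951 in abnormal samples. Every young sample was above all 8 aged samples, with an exact permutation p of 0.0286 for each aged group and 0.107 after adjustment over the 15 tests. Abnormal and normal fibers overlapped (exact p = 0.286, adjusted 0.429).

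The other ratios overlapped between the groups. *Ryr1* stood to *Cacna1s* at 0.965 ± 0.110 (SD, n = 4) in young, 0.872 ± 0.038 in normal and 0.938 ± 0.152 in abnormal fibers, with adjusted exact permutation p-values from 0.321 to 0.743. The TPM ratio of the release channel to the voltage sensor was near 1 in every group. Its absolute value depends on the transcript lengths used for TPM, so only the comparison between groups can be read. *Stac3* stood to *Cacna1s* at 2.30 ± 0.273 in young, 2.00 ± 0.170 in normal and 1.89 ± 0.475 in abnormal fibers (adjusted exact p from 0.257 to 0.673). *Trdn* stood to *Ryr1* at 14.1 ± 2.30, 15.6 ± 2.37 and 13.7 ± 2.89 in the same order (adjusted exact p from 0.429 to 0.673).

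**Figure D4:**
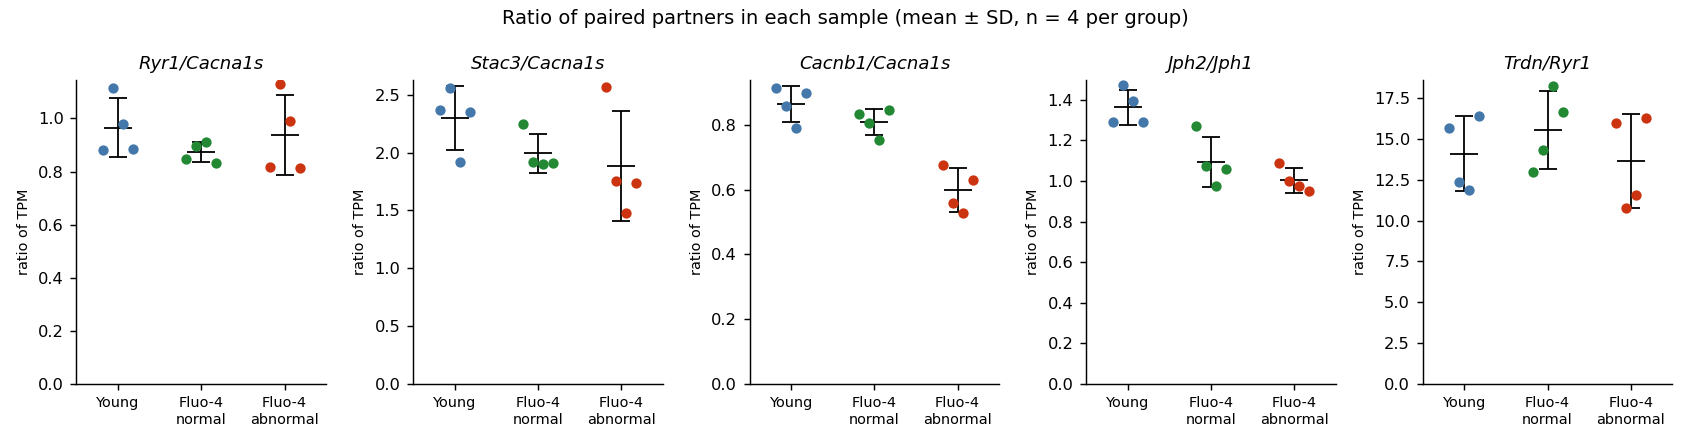
Ratio of the TPM of 2 members in each sample (vertical axis, starting at 0) for 5 pairs; dots are samples and bars are the mean ± SD of 4 samples. Cacnb1/Cacna1s is lowest in the 4 abnormal samples (0.528 to 0.678) and Jph2/Jph1 highest in the 4 young samples (1.29 to 1.47), and the other 3 ratios overlap between groups.

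The members also differed in which genes their profile over the 12 samples was most like, measured as the root mean square difference of centred log2(TPM + 1) values over 5993 other genes with a mean of at least 5 TPM. The gene nearest to *Cacna1s* was *Myh4*, at a difference of 0.074, followed by *Tor1aip1*, *Anapc5*, *Jph1* and *Furin*, up to 0.093. *Myh4* was itself higher in abnormal over normal fibers, by 0.66 (adjusted p = 0.020), and its adjusted p was 0.18 after TMM-type rescaling. Nearest to *Ryr1* were *Vldlr*, *Larp1*, *Aebp1*, *Man2a2* and *Mapk9*, from 0.10 to 0.15, and *Cacna1s* came 10th at 0.154. Seen from *Cacna1s*, *Ryr1* came 168th. *Stac3* and *Jph2* were near to each other, at 0.115, which was rank 6 from *Stac3* and rank 7 from *Jph2*. *Cacnb1* was far from *Cacna1s*, at rank 3215 from the former and rank 1925 from the latter.

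The close relatives of the members were mostly not measured at a level that could be read. Of 15 paralogs, 11 passed the filter on low values and 1 of these, *Cacng6*, had a mean of at least 5 TPM. *Cacng6*, another gamma subunit of calcium channels, was at 176 TPM in abnormal, 122 in normal and 154 in young fibers. It rose by 0.52 ± 0.09 (SE; adjusted p = 0.0041) over normal fibers, with no overlap of samples. Among the relatives of the release channel, *Ryr2*, the cardiac form, was listed at 0 in all 12 samples, and *Ryr3* had a mean of at most 0.084 TPM in any group. *Cacna1c*, the cardiac pore-forming subunit, had a mean of at most 0.070 TPM.

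Another 30 genes of the triad and T-tubule, which are no members, gave a mixed picture. Where 7.36% of all genes tested were called higher between abnormal and normal fibers, 13 of these 30 rose and 1 fell. Their median was 0.30, against 0.10 over all genes. Among the 5994 genes with a mean of at least 5 TPM, 848 were called higher, with a median of 0.20. Under TMM-type factors, which called 310 of all genes higher and 545 lower, none of the 30 was called higher and 2 were called lower. Among those that rose were *Bin1*, which shapes T-tubule membranes (0.44 ± 0.07 SE, adjusted p = 0.0024), *Casq1*, the calcium store protein of fast fibers (0.50 ± 0.07 SE, adjusted p = 0.0017) and *Dysf*, a membrane repair protein (0.68 ± 0.14 SE, adjusted p = 0.012). The other genes that rose were *Calm3*, *Srl*, *Asph*, *Hrc*, *Fkbp1a*, *Tmem38a*, *Tmem38b*, *Tmem109*, *Sypl2* and *Ank1*, by 0.20 to 0.60. *Homer2*, a scaffold protein, fell by 1.26 (adjusted p = 0.0014), from 8.06 to 2.75 TPM, and was called lower under each of the scalings tried.

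Relative to young fibers these genes split. In abnormal fibers 3 were called higher and 2 lower, with a median of 0.11, where 879 and 348 of all 14429 genes were. Under TMM-type factors it was 2 higher and 3 lower, with a median of -0.04, beside 450 and 692 of all genes. The changes above 0 went from 21 to 12 of 30 under these factors, and to 10 after removal of the GC and length trend. The values that follow are from the fit without rescaling. *Bin1* rose in abnormal fibers by 0.58 (adjusted p = 0.00036), *Dysf* by 0.75 (adjusted p = 0.0068) and *Tmem38b*, a cation channel of the SR, by 0.52 (adjusted p = 0.0081), while *Homer2* fell by 1.00 (adjusted p = 0.0040) and *Sypl2*, a triad junction protein also known as mitsugumin-29, fell by 0.26 (adjusted p = 0.021). In normal against young fibers 3 fell, *Casq1* by 0.68 (adjusted p = 0.00042), *Sypl2* by 0.54 (adjusted p = 0.0012) and *Calm3* by 0.73 (adjusted p = 0.027), and none rose. Over all 14429 genes tested 85 were called lower and 81 higher in that comparison. *Casq1* was at 3665 TPM in young, 2284 in normal and 3238 in abnormal fibers. Like *Jph2* and *Stac3*, it was lower in the normal fibers than in each other group. Unlike them, its abnormal samples were also all below the young ones (-0.18, adjusted p = 0.15 by limma). All normal samples also lay below both other groups for *Srl*, *Sypl2*, *Tmem109*, *Fkbp1a* and *Ank1* and for the paralog *Cacng6*.

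**Figure D5:**
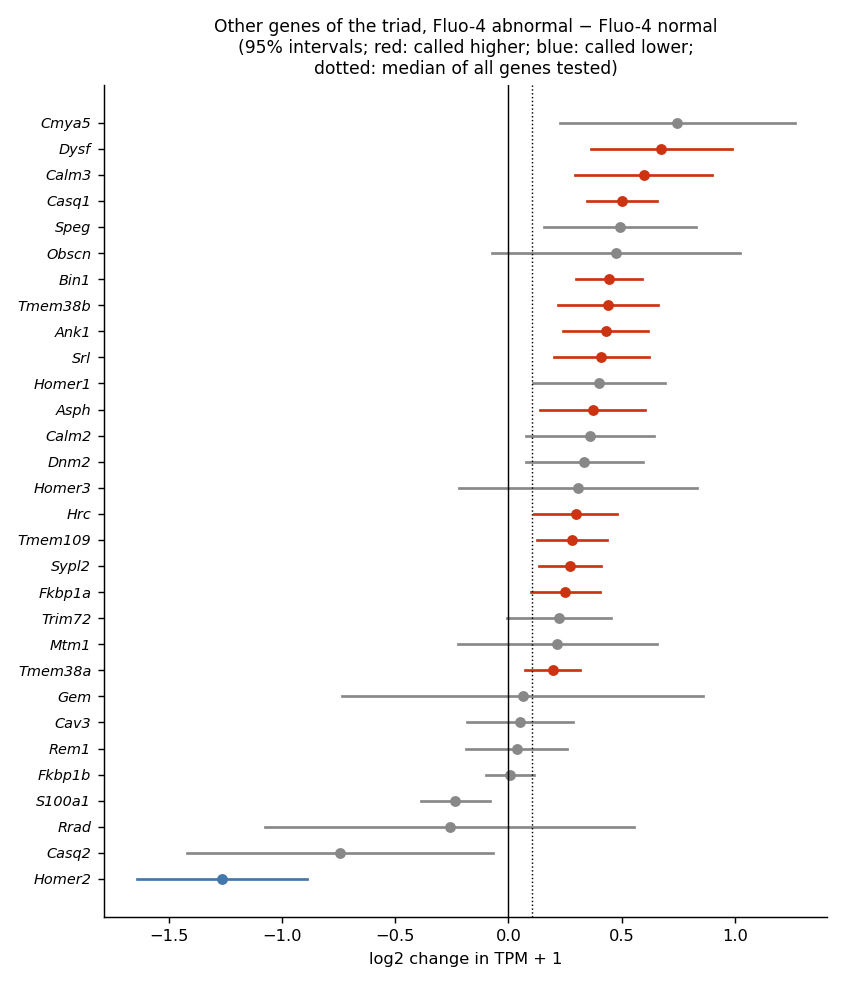
Change of 30 other triad genes between Fluo-4 abnormal and Fluo-4 normal fibers on the log2(TPM + 1) scale (horizontal axis), in order of size; lines are 95% intervals from limma, red is called higher, blue called lower, and the dotted line is the median of all genes tested. Of the 30 genes 13 are red and Homer2 is the 1 in blue, and the order runs from Cmya5 at 0.75, which was not called, to Homer2 at -1.26.

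Reads that belong to other genes could enter 3 of the members, since the library kit keeps no strand. Exons of *Ryr1*, *Cacna1s* and *Trdn* overlap genes on the opposite strand by at least 100 bases in the GENCODE vM39 annotation. The largest overlap was 1334 bases, of *Cacna1s* with *Gm37759*, which was at most 1.32 TPM. *Gm26604* across from *Ryr1* was at most 2.12 TPM, and *D830005E20Rik* and *Gm47908* across from *Trdn* at most 4.32 and 18.6 TPM, far below the members themselves. *Gm72167* and *Gm73845* across from *Ryr1* and *Gm69845* across from *Cacna1s* had no values. Without strand, these levels do not show how many reads from the opposite strand were counted for a member, which was not tested. No member had a transcript of another gene at 95% identity or more over 50% of its canonical transcript.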

How the data were processed

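Total RNA (10 ng per library) of isolated myofibers was converted with the SMART-Seq v4 kit, which keeps no strand. The authors aligned reads to GRCm39 (mm39) with DRAGEN and deposited TPM values per gene, 1 table for each of the 12 samples. The annotation behind them was not given in the sources used here. Values of 114 symbols on several lines were summed. Protein-coding and mitochondrially-encoded genes above 0.02 TPM in a group mean were kept (14429). Groups were compared with limma 3.58.1 in R 4.3.3 (variance trend, all 12 samples in 1 fit) on log2(TPM + 1), a scale that understates changes of low genes, with Benjamini-Hochberg adjustment and a threshold of 0.05, and this was tested on simulated data. Ratios were tested by exact permutation in Python 3.11.15. Members and lists were chosen with earlier results of these data known. Some items of the gene lists are not reported here. The text names all members, other triad genes and paralogs called in a comparison, and the 5 nearest genes of *Ryr1* and *Cacna1s*. *Ryr2*, *Ryr3*, *Cacna1c*, *Cmya5* and further likeness ranks were named after their values were seen. Same-numbered abnormal and normal samples deviated together (r from 0.34 to 0.57 over 2992 genes), so these numbers pair samples, although no label says what a number marks. With the young samples no clear pairing was seen (same-numbered r from -0.13 to 0.27, and up to 0.36 between samples of different number). Whether the numbers mark something weaker that is shared with the young samples cannot be told from this. Alternatives were TMM-type factors, a GC and length correction, scaling without mitochondrially-encoded genes, filters of 5 TPM and none, a pseudocount of 0.1, only the compared groups, the replicate block, the *Myh4* share as covariate, and each sample left out. Promoters were searched over the 250 bases before each start, and similar transcripts with BLAST 2.17.0.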

Additional observations from a re-analysis of the deposited data

Results flagged for a closer look

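In each group of 4 samples, the gap of the highest or lowest sample to its nearest neighbour was divided by the range of the group, for the 10 members and the 5 ratios. In 4 of 45 groups it was above Dixon's 95% critical value for 4 samples, and chance alone gives about 1 in 20. *Cacnb1* in Fluo-4 normal fibers (0.867) had normal sample 1 at 68.6 TPM, below 85.8 to 88.4 TPM in the others. *Cacng1* in young fibers (0.858) had young sample 1 at 429 TPM, above 353 to 364 TPM. *Trdn* in young fibers (0.879) had young sample 2 at 1731 TPM, above 1623 to 1636 TPM. The ratio of *Stac3* to *Cacna1s* in Fluo-4 normal fibers (0.932) was 2.25 in normal sample 1 and 1.90 to 1.92 in the others.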

How the results depend on the processing

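The number of members called higher between abnormal and normal fibers was 6 and lay between 4 and 9 in all settings tried but one. That exception was the replicate block together with the *Myh4* share of each sample, under which 0 members, and 0 of all 14429 genes, were called by limma (2461 genes had an unadjusted p under 0.05). The calls over all genes moved as well. Under the filter of 5 TPM, which gave 9 members, 1419 of 6348 genes were called higher. Under TMM-type factors, which gave 4, it was 310 of 14403. With the replicate block alone the same 6 were called, with adjusted p-values up to 0.033, and for the ratios the paired exact permutation p cannot go below 0.125, the value for *Cacnb1* to *Cacna1s* (-0.44). In the comparisons with young fibers the numbers showed no clear pairing, and the block added *Cacna1s* (adjusted p = 0.015) for abnormal and *Cacnb1* (0.025) for normal fibers. Over all genes the block took the calls higher from 879 to 1212 for abnormal and the calls lower from 85 to 192 for normal fibers. Between normal and young fibers 0 members were called when only these groups were fitted, and from 0 to 2 with a sample left out. It was 0 without young sample 2, young sample 3, normal sample 2 or normal sample 4. Over all 14429 genes 85 were called lower in the fit reported above and 25 with only these groups. Without those samples it was 17, 20, 31 and 23, in the order named. Between abnormal and young fibers 1 to 2 members were called with a sample left out, *Cacng1* always. *Jph1* was lost without young sample 1, 3 or 4 or abnormal sample 2, 3 or 4. Over all genes, 378 to 867 were called higher with a sample left out, against 879 in the fit reported above.

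Changes near 0 turned sign. *Cacnb1* between abnormal and normal fibers was -0.0349 under TMM-type factors and -0.0759 after removal of the GC and length trend, with or without the block. Between abnormal and young fibers *Jsrp1* was -0.108 and -0.0741, and *Stac3* -0.134 and -0.0848, under the same settings. With each sample left out, *Stac3* ranged from -0.006 to 0.107 and *Jph2* from -0.0967 to 0.0602.

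Among the log2 ratios, removal of the GC and length trend turned *Ryr1* to *Cacna1s* to -0.0377, *Stac3* to *Cacna1s* to 0.0886 and *Trdn* to *Ryr1* to 0.0421 between abnormal and normal fibers, turned *Trdn* to *Ryr1* to 0.0922 between abnormal and young, and took *Jph2* to *Jph1* to -0.26 (exact p = 0.114) between normal and young. With a sample left out, the ranges between abnormal and normal were -0.0021 to 0.15 for *Ryr1* to *Cacna1s*, -0.27 to -0.0015 for *Stac3* to *Cacna1s* (exact p = 0.0286 without abnormal sample 1) and -0.50 to -0.38 for *Cacnb1* to *Cacna1s* (exact p = 0.0571 without normal sample 1 or 4). Between abnormal and young they were -0.143 to 0.023 for *Ryr1* to *Cacna1s* and -0.15 to 0.0498 for *Trdn* to *Ryr1*, and between normal and young -0.39 to -0.27 for *Jph2* to *Jph1* (exact p = 0.0571 without any 1 young sample). The causes of these shifts were not tested. TPM gives no depth, so counting error could not be separated from the spread between samples.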
